A study of Caenorhabditis elegans with 79 samples.

Results

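The regions described here are the 381 windows of 1 kb in the Caenorhabditis elegans genome that the authors' deposited table marks as GRH, as GRTS or as both. GRH stands for germline nuclear RNAi-dependent heterochromatin and GRTS for germline nuclear RNAi-dependent transcriptional silencing. The members were taken as every row with a yes in either flag, out of 100257 rows that tile the chromosomes. Of the members, 190 carried the GRH flag alone, 166 carried the GRTS flag alone and 25 carried both. The study measured the histone marks H3K9me3 and H3K36me3 by chromatin immunoprecipitation and sequencing (ChIP-seq) in whole young adult worms, with sequenced input chromatin beside them. The strains were wild type (N2, called WT here), morc-1(tm6048), hrde-1(tm1200), met-1(xk4), and the double mutants met-1(xk4);morc-1(tm6048) and met-1(xk4);hrde-1(tm1200). All animals were grown at 25 °C after earlier culture at 20 °C, and were collected in an early generation (generation 1 at 25 °C) or a late one. Late was generation 4, except that 1 late library each of WT (H3K36me3), morc-1 (both marks) and hrde-1 (H3K9me3) came from generation 5.

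In germline nuclear RNAi, small RNAs bound to the Argonaute protein HRDE-1 enter germ cell nuclei, pair with nascent transcripts and direct both transcriptional silencing and H3K9 methylation, and the silent state can pass to later generations. HRDE-1 is made in germ cells. MORC-1 is a GHKL-type ATPase of the Microrchidia family, whose members act in gene silencing and chromatin compaction. MET-1 is an H3K36 methyltransferase related to Set2, and H3K36me3 marks the bodies of transcribed genes, whereas H3K9me3 marks heterochromatin. The sources used here do not say which libraries were used to set the GRH and GRTS flags. Both names refer to loss of silencing in nuclear RNAi mutants, so a fall of H3K9me3 in hrde-1 at GRH regions is not independent evidence of its direction. The same holds for a larger fall at GRH than at GRTS regions. It also holds for a rise of H3K36me3 in hrde-1 at GRTS regions, with or without met-1, since that mark follows transcription.

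The 39 ChIP-seq libraries that could be tied to their labels were 8 of H3K9me3, 19 of H3K36me3 and 12 of input. H3K9me3 was measured in WT, morc-1 and hrde-1 with 1 early library each, and with 1 late WT library, 2 late morc-1 libraries and 2 late hrde-1 libraries. H3K36me3 was measured in all 6 strains with 1 early library each, 3 late WT libraries and 2 late libraries of each other strain. Values are FPKM, fragments per kilobase of region scaled to sequencing depth, as the authors deposited them. The smallest steps between low values correspond to 8570000 to 16070000 fragments per H3K9me3 library and 9240000 to 13950000 per H3K36me3 library, or to whole multiples of these numbers. All tests used limma on log2(FPKM + 1) across the 100250 regions whose input averaged 2 FPKM or more, which kept all 381 members, and a region was called at a Benjamini-Hochberg adjusted p under 0.05. The labels do not say whether replicate libraries came from separate cultures, so the tests measure only the spread between these libraries. In whole animals, fewer cells carrying a mark and less of the mark per cell cannot be told apart.

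More GRTS only regions lay on chromosome V than on any other. Of the GRTS only regions, 79 of 166 (47.6%) lay on chromosome V, which holds 20.9% of all regions, and 0 of 166 lay on the X chromosome, which holds 17.7%. The GRH only regions were spread more evenly, with 49 of 190 (25.8%) on chromosome I, which holds 15.0% of all regions, and 3 on the X chromosome. The middle 50.0% of each chromosome's regions held 55.3% of the GRH only regions and 33.7% of the GRTS only regions. Joining neighbouring members gave 176 runs, of which 102 were single regions and 21 were at least 5 kb long and together held 143 members. The longest run was 14 kb at chrV:5187001-5201000 and all of its regions were GRTS only. Of the runs, 84 held only GRH only regions, 74 held only GRTS only regions, 2 held only regions with both flags and 16 were mixed. The deposited coordinates carry no genome build in the sources used here, so no genes or annotations were assigned to the regions.

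Some members had nearly the same values as another member in every library. Pairs were sought with a limit of 0.25, set after the values were seen. In 19 pairs the values differed by at most 0.24 on the log2(FPKM + 1) scale in all 39 libraries, and 15 of these pairs joined GRTS only regions. In 14 of the pairs the partners lay 42 kb apart on chromosome V, and they included the whole 11-kb runs chrV:8826001-8837000 and chrV:8868001-8879000. H3K9me3 averaged 34.2 FPKM in the late WT library over the first of these runs and 34.3 FPKM over the second. Whether these pairs share sequence was not tested, and they are not independent observations.

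In WT the classes differed in both marks. Median H3K9me3 in the late WT library was 16.1 FPKM over GRH only regions (quartiles 11.4 and 23.3), 27.3 FPKM over GRTS only regions (quartiles 17.9 and 38.1) and 23.6 FPKM over regions with both flags, beside 7.87 FPKM over all 100257 regions. H3K36me3 had the opposite order. Its medians in the 3 late WT libraries were 9.03, 9.31 and 9.65 FPKM over GRH only regions and 4.01, 4.78 and 4.87 FPKM over GRTS only regions, beside 5.02, 5.10 and 5.64 FPKM over all regions. The authors' deposited table sorts regions into H3K9me3 tiers, with median late WT H3K9me3 falling from 63.99 FPKM in tier 1 to 3.29 FPKM in tier 7. It places 129 of 166 GRTS only regions (77.7%) and 106 of 190 GRH only regions (55.8%) in tiers 1 to 3, which hold 5.02% of all regions. Tier 8, of 506 regions and no members, is outside that order. Its medians in late WT were 72.4 FPKM of H3K9me3 and 62.8 FPKM of input. Median input lay between 8.67 and 10.1 FPKM in every class and library.

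The member with the highest H3K9me3 in late WT was the GRTS only region chrV:18440001-18441000, with 67.3 FPKM in early WT and 77.9 FPKM in late WT. The next was chrI:4461001-4462000, which carries both flags, with 49.5 and 71.4 FPKM. The others of the highest 5 all lay on chromosome V. They were the GRTS only regions chrV:5188001-5189000 (71.3 FPKM in late WT) and chrV:20297001-20298000 (64.0 FPKM), and chrV:20296001-20297000 with both flags (63.9 FPKM).

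H3K9me3 fell over most members in late hrde-1 animals, with a larger median change at GRH only than at GRTS only regions. Median H3K9me3 over GRH only regions was 16.1 FPKM in the 1 late WT library and 4.08 and 4.82 FPKM in the late hrde-1 libraries. Over GRTS only regions it was 27.3 FPKM in WT and 12.6 and 12.7 FPKM in hrde-1, and over regions with both flags it was 23.6 FPKM in WT and 5.63 and 6.56 FPKM in hrde-1. The hrde-1 medians of GRH only regions were below the genome-wide median of 7.53 and 7.77 FPKM in the same libraries, whereas those of GRTS only regions stayed above it. H3K9me3 was called lower at 164 of 190 GRH only regions, 103 of 166 GRTS only regions and all 25 regions with both flags, and higher at none. Over all regions tested, 1.22% were called lower and 0.108% higher, and members made up 292 (23.9%) of those 1221 regions. The median log2 change was -1.59 at GRH only regions, -0.87 at GRTS only regions and -1.66 at regions with both flags, beside -0.01 over all regions tested. As said above, the flags' own definition makes this direction no independent finding, nor the larger change at GRH only than at GRTS only regions. Without late hrde-1 replicate 1 the GRTS only count was 68 in place of 103.

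The largest falls in hrde-1 were in 2 runs. In chrII:12743001-12744000, a GRH only region, H3K9me3 was 25.4 FPKM in early WT, 43.2 FPKM in late WT, and 3.64 and 4.34 FPKM in late hrde-1. That is a log2 change of -3.15 (SE 0.22). Late WT is 1 library here, so the SE takes its spread from the groups with replicates. Its neighbour chrII:12745001-12746000 had 38.5 FPKM in late WT and 3.81 and 3.68 FPKM in late hrde-1, a log2 change of -3.06 (SE 0.22). In chrI:4460001-4461000, which carries both flags, late WT had 47.0 FPKM and late hrde-1 had 5.01 and 4.84 FPKM, a log2 change of -3.02 (SE 0.21). In each of these the late hrde-1 values lay below the values of every WT and morc-1 library.

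Some GRTS regions with high H3K9me3 had values in hrde-1 close to those in WT. Among the 195 members with at least 20 FPKM in late WT, the smallest change was at the GRTS only region chrV:18447001-18448000. It had 48.3 FPKM in late WT, 46.4 and 46.6 FPKM in late morc-1 and 46.4 and 49.5 FPKM in late hrde-1, a log2 change of -0.01 (SE 0.24). The GRTS only region chrI:11296001-11297000 had 21.3 FPKM in late WT and 23.9 and 18.6 FPKM in late hrde-1. The GRTS only region chrIV:4137001-4138000 had 23.3 FPKM in late WT and 22.3 and 23.2 FPKM in late hrde-1. At the first pair the WT value lay between the hrde-1 values, and at the last it lay just above both.

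In late morc-1 animals the fall of H3K9me3 was found mostly at GRH regions. Median H3K9me3 over GRH only regions was 5.91 and 6.45 FPKM in the late morc-1 libraries, against 16.1 FPKM in late WT and 11.5 FPKM in early WT. Over GRTS only regions it was 21.6 and 19.3 FPKM against 27.3 FPKM, and over regions with both flags it was 13.5 and 15.8 FPKM against 23.6 FPKM. H3K9me3 was called lower at 114 of 190 GRH only regions, 8 of 166 GRTS only regions and 5 of 25 regions with both flags, and higher at none, where 0.365% of all regions tested were called lower and 0.224% higher. Members made up 127 (34.7%) of the 366 regions called lower. The median log2 change was -1.08 at GRH only regions, -0.29 at GRTS only regions and -0.67 at regions with both flags, beside 0.00 over all regions tested, and the fitted change was below 0 at 190 of 190, 142 of 166 and 25 of 25 regions. Counted by run, 54 of the 84 runs of only GRH only regions and 5 of the 74 runs of only GRTS only regions held at least 1 region called lower. The late WT value rests on 1 library. Whether that library was used to set the flags is not known, so the size of the fall may not be independent of them. When early and late libraries were fitted together with strain and stage as terms, 110 GRH only, 7 GRTS only and 4 regions with both flags were called lower, with a GRH only median of -0.82. Leaving out 1 late morc-1 library moved the GRTS only count to 3 (without replicate 2) and the count with both flags to 3 (without replicate 1).

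The largest falls in morc-1 were all at GRH only regions. In chrIII:8795001-8796000, H3K9me3 was 10.6 FPKM in early WT, 22.1 FPKM in late WT, 4.88 FPKM in early morc-1 and 2.80 and 4.05 FPKM in late morc-1. The log2 change between the late groups was -2.40 (SE 0.28), and late hrde-1 had 1.99 and 4.34 FPKM. In chrV:15590001-15591000, late WT had 26.7 FPKM, late morc-1 had 3.76 and 6.36 FPKM and late hrde-1 had 5.04 and 4.47 FPKM. In chrIII:3452001-3453000, late WT had 29.8 FPKM, late morc-1 had 5.48 and 6.47 FPKM and late hrde-1 had 2.90 and 4.41 FPKM. At the first of these 3 regions the late morc-1 and hrde-1 values overlapped, and at the second the morc-1 values lay on both sides of the hrde-1 values.

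**Figure D1:**
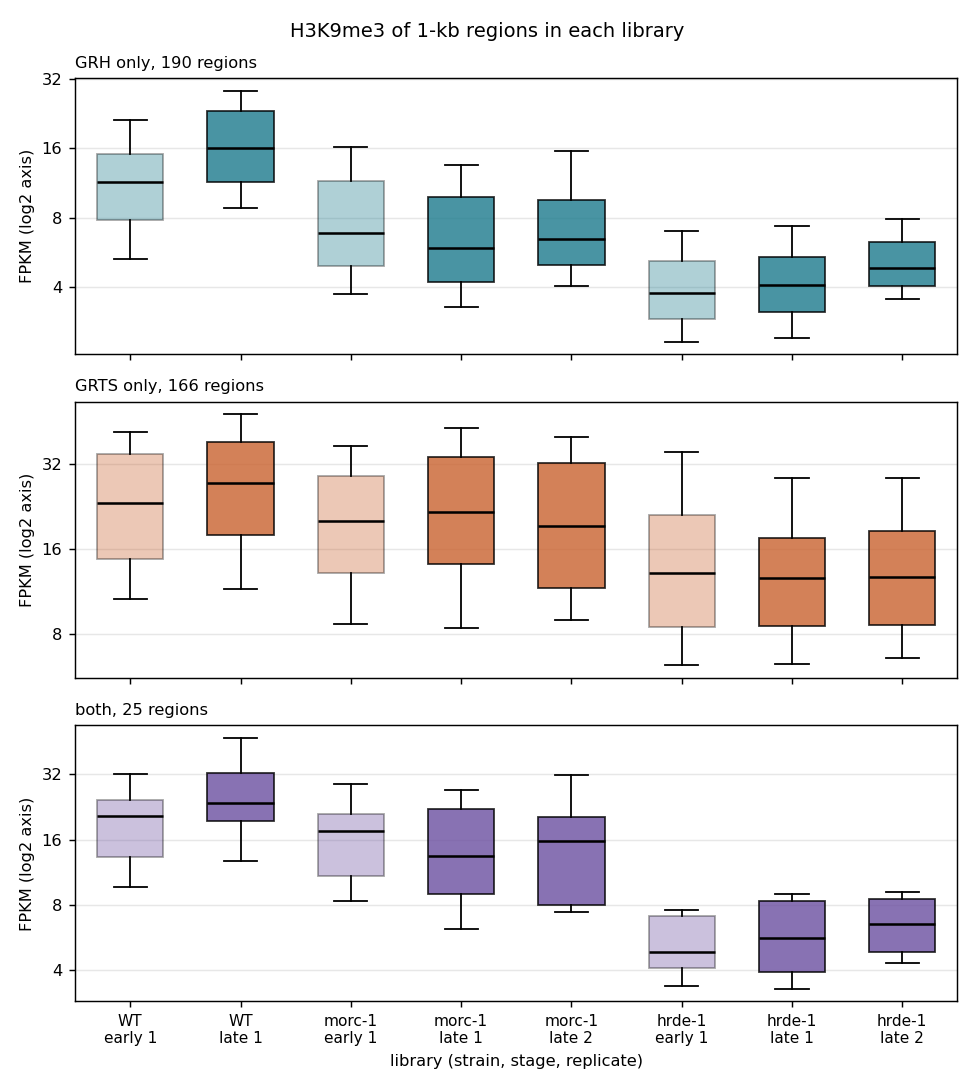
H3K9me3 in FPKM (log2 axis) of the 1-kb regions in each of the 8 libraries, with 1 panel for each class. The line in each box is the median, boxes span the quartiles, whiskers the central 80% and pale boxes are early libraries; GRH only medians were 16.1 FPKM in late WT, 5.91 and 6.45 FPKM in late morc-1 and 4.08 and 4.82 FPKM in late hrde-1.

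The late mutants were then compared with each other. H3K9me3 was lower in hrde-1 than in morc-1 at 141 members and higher at none. Over all regions tested, 0.703% were called lower and 0.137% higher. The flags name dependence on nuclear RNAi, in which HRDE-1 acts, so this direction is not independent evidence. The members called were 51 of 190 GRH only, 72 of 166 GRTS only and 18 of 25 with both flags, with median log2 differences of -0.35, -0.54 and -0.98, beside -0.02 over all regions tested. The GRTS only count was 43 without late hrde-1 replicate 1. The 3 largest differences were at regions on chromosome I with both flags. In chrI:4460001-4461000, late morc-1 had 26.8 and 35.1 FPKM against 5.01 and 4.84 FPKM in late hrde-1, a log2 difference of -2.42 (SE 0.17). In chrI:4463001-4464000, late morc-1 had 17.6 and 19.5 FPKM against 3.39 and 3.53 FPKM. In chrI:2634001-2635000, late morc-1 had 21.0 and 18.6 FPKM against 3.32 and 4.37 FPKM. At all 3 the values of the 2 mutants did not overlap, and late WT was higher than both, at 47.0, 34.4 and 32.5 FPKM.

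H3K9me3 at GRH regions was higher in the late than in the early WT library, and in morc-1 it was similar or lower. Each early group is 1 library, so these differences were not tested. In WT, late H3K9me3 exceeded early H3K9me3 at 187 of 190 GRH only regions, beside 54013 of all 100257 regions. The median log2 difference was 0.53 at GRH only regions, 0.13 at GRTS only regions, 0.40 at regions with both flags and 0.03 over all regions. Whether the late WT library was used to set the flags is not known. The rise in WT and the size of late differences from WT may therefore not be independent of the flags. In morc-1 the GRH only median was 6.87 FPKM in the early library and 5.91 and 6.45 FPKM in the late libraries, with median log2 differences of -0.13 and -0.03. In hrde-1 it was 3.76 FPKM early and 4.08 and 4.82 FPKM late, with differences of 0.08 and 0.29. Within the early generation, GRH only regions had median log2 differences from WT of -0.44 in morc-1 and -1.26 in hrde-1. For GRTS only regions these were -0.20 and -0.69, and for regions with both flags -0.21 and -1.50. A difference of more than 1 on the log2 scale below early WT was reached by 14 GRH only regions in early morc-1 and by 130 in early hrde-1, beside 32 and 504 of all 100257 regions. Late morc-1 replicates 1 and 2 reached it against late WT at 117 and 97 GRH only regions, beside 344 and 300 of all regions.

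The H3K9me3 around the members reached beyond the flagged windows. Outside the 88 runs made mostly of GRH only regions, median late WT H3K9me3 was 16.5 FPKM inside the runs, 12.7 FPKM at 1 kb, 8.98 FPKM at 2 kb and 7.26 FPKM at 4 kb. At 1 kb the late morc-1 medians were 7.34 and 6.97 FPKM and the late hrde-1 medians 4.93 and 5.65 FPKM. Of the 168 flanking regions at 1 kb, 94 were called lower in hrde-1 and 54 in morc-1. Over all regions tested the shares called lower were 1.22% in hrde-1 and 0.365% in morc-1. At 2 kb the calls were 51 and 23 of 149, and at 3 kb they were 32 and 9 of 147. At 5 kb they were 14 and 1 of 141. Outside the 79 runs made mostly of GRTS only regions, late WT H3K9me3 was 27.5 FPKM inside, 19.1 FPKM at 1 kb and 16.4 FPKM at 2 kb, and at 1 kb 55 of 145 regions were called lower in hrde-1 and 6 in morc-1. Neighbouring windows share sequenced fragments and chromatin, so these counts are not independent.

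**Figure D2:**
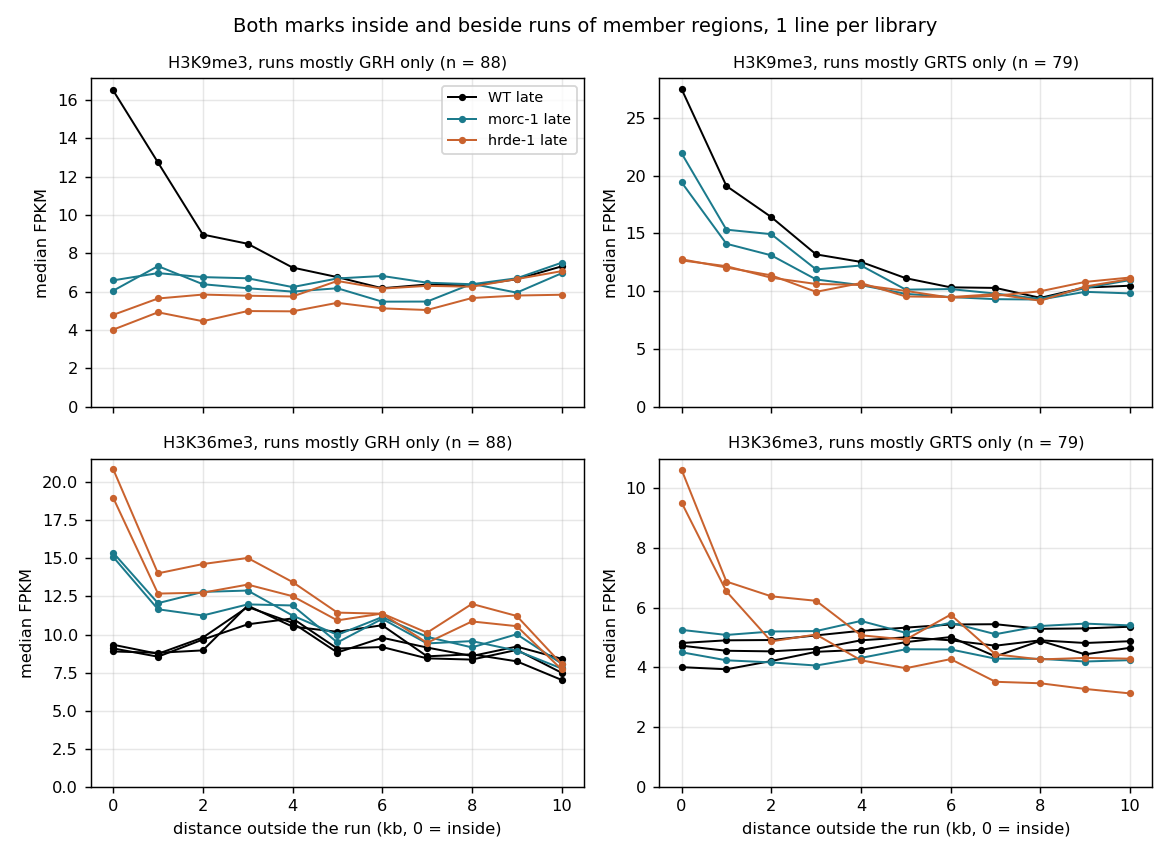
Median H3K9me3 (upper panels) and H3K36me3 (lower panels) in FPKM inside and up to 10 kb outside runs of GRH only (left) and GRTS only (right) regions, with 1 line for each late library. At GRH only runs late WT H3K9me3 went from 16.5 FPKM inside to 7.26 FPKM at 4 kb, and late hrde-1 H3K36me3 was 20.9 and 18.99 FPKM inside against 14.02 and 12.7 FPKM at 1 kb.

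H3K36me3 rose over both classes in late hrde-1. As said above, this direction at GRTS regions is not independent of the flag. Median H3K36me3 over GRH only regions was 9.03, 9.31 and 9.65 FPKM in late WT and 20.8 and 19.1 FPKM in late hrde-1. Over GRTS only regions it was 4.01, 4.78 and 4.87 FPKM in WT and 9.52 and 10.4 FPKM in hrde-1, and over regions with both flags 5.02, 4.73 and 5.44 FPKM in WT and 17.6 and 16.6 FPKM in hrde-1. The hrde-1 and WT medians of each class did not overlap. H3K36me3 was called higher at 121 GRH only, 113 GRTS only and 22 regions with both flags, and lower at none, while 1.92% of all regions tested were called higher and 11.5% lower. The median log2 changes were 0.62, 0.96 and 1.48. The median region of the genome moved the other way in these libraries. The median log2 change over all regions tested was -0.28, and 11545 regions were called lower against 1921 higher. This was a fall at low values. Over all regions the median was 3.31 and 4.29 FPKM in late hrde-1 and 5.02, 5.10 and 5.64 FPKM in late WT. The upper quartile was 11.95 and 12.4 FPKM in late hrde-1 and 11.9, 11.8 and 11.4 FPKM in late WT. With quantile normalization, which removes this shift, 428 were called lower and 872 higher, and the members called higher were 87 GRH only, 109 GRTS only and 21 with both flags. Without late hrde-1 replicate 1 the GRH only count was 72 in place of 121.

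The largest rises in hrde-1 were at GRTS only regions on chromosome V. In chrV:17572001-17573000, H3K36me3 was 2.58, 2.69 and 3.79 FPKM in late WT, 2.71 and 4.15 FPKM in late morc-1 and 21.2 and 17.8 FPKM in late hrde-1. The log2 change against WT was 2.36 (SE 0.19, limma adjusted p 8.93e-11). Its H3K9me3 was 35.6 FPKM in late WT and 17.2 and 18.2 FPKM in late hrde-1, so the region kept more H3K9me3 than the genome-wide median of 7.53 and 7.77 FPKM. In chrV:17570001-17571000, late WT had 2.44, 5.10 and 4.20 FPKM and late hrde-1 23.8 and 21.1 FPKM. In chrV:8871001-8872000, late WT had 2.79, 5.52 and 3.79 FPKM and late hrde-1 21.9 and 24.0 FPKM. The early hrde-1 library was already high at these regions, with 15.7, 18.99 and 22.2 FPKM against 3.57, 5.45 and 6.16 FPKM in early WT.

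In late morc-1, H3K36me3 rose mainly at GRH regions. The medians of the late morc-1 libraries were 15.9 and 15.4 FPKM over GRH only regions, 4.51 and 5.33 FPKM over GRTS only regions and 6.41 and 6.88 FPKM over regions with both flags. H3K36me3 was called higher at 59 of 190 GRH only regions, 9 of 166 GRTS only regions and 5 of 25 regions with both flags, and lower at none, against 0.42% of all regions tested called higher and 0.00998% lower. Median log2 changes were 0.38, 0.08 and 0.28, beside -0.03 over all regions tested. These counts depended on single libraries. Without late morc-1 replicate 2, 38 members in place of 73 were called, among them 31 GRH only and 1 with both flags, and the GRTS only median was -0.02. The count with both flags was 2 without late WT replicate 1 and 3 without late WT replicate 2. With the sets in the sample names as a block, 17 GRTS only regions and 8 with both flags were called. In early morc-1 the GRH only median was 12.4 FPKM against 8.79 FPKM in early WT, between those of early WT and late morc-1.

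The largest rise in morc-1 was at the GRH only region chrII:14986001-14987000, with 3.51, 4.45 and 3.49 FPKM in late WT and 17.3 and 13.9 FPKM in late morc-1. The log2 change was 1.78 (SE 0.16, limma adjusted p 2.18e-08), and late hrde-1 had 19.1 and 18.1 FPKM. The GRH only region chrI:11681001-11682000 had 6.31, 5.47 and 6.26 FPKM in late WT, 23.2 and 20.1 FPKM in late morc-1 and 23.3 and 23.9 FPKM in late hrde-1. The third was a GRTS only region, chrIV:13638001-13639000, with 4.14, 4.64 and 4.85 FPKM in late WT and 17.9 and 14.5 FPKM in late morc-1. In it H3K9me3 was 17.9 FPKM in late WT and 9.72 and 6.11 FPKM in late morc-1. At each of the 3 regions every morc-1 and hrde-1 library, early ones included, lay above every WT library.

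Compared directly, late hrde-1 exceeded late morc-1 in H3K36me3 at 129 members and was below it at none. Over all regions tested, 0.614% were called higher and 1.08% lower. This direction, too, is not independent of the flags. The members were 29 GRH only, 82 GRTS only and 18 with both flags. The median log2 differences were 0.20, 0.76 and 1.23, beside -0.23 over all regions tested, a shift that quantile normalization removes and under which the medians were 0.08, 0.72 and 1.16. The GRH only count was 15 without late hrde-1 replicate 1. The 3 largest differences were at chrV:17572001-17573000 (described above), chrIV:4130001-4131000 and chrII:13249001-13250000. The second carries both flags and had 4.02 and 4.81 FPKM in late morc-1 against 20.3 and 25.6 FPKM in late hrde-1, and the last also carries both flags and had 5.69 and 4.65 FPKM against 25.6 and 23.0 FPKM. In both regions the late morc-1 and late WT values overlapped.

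**Figure D3:**
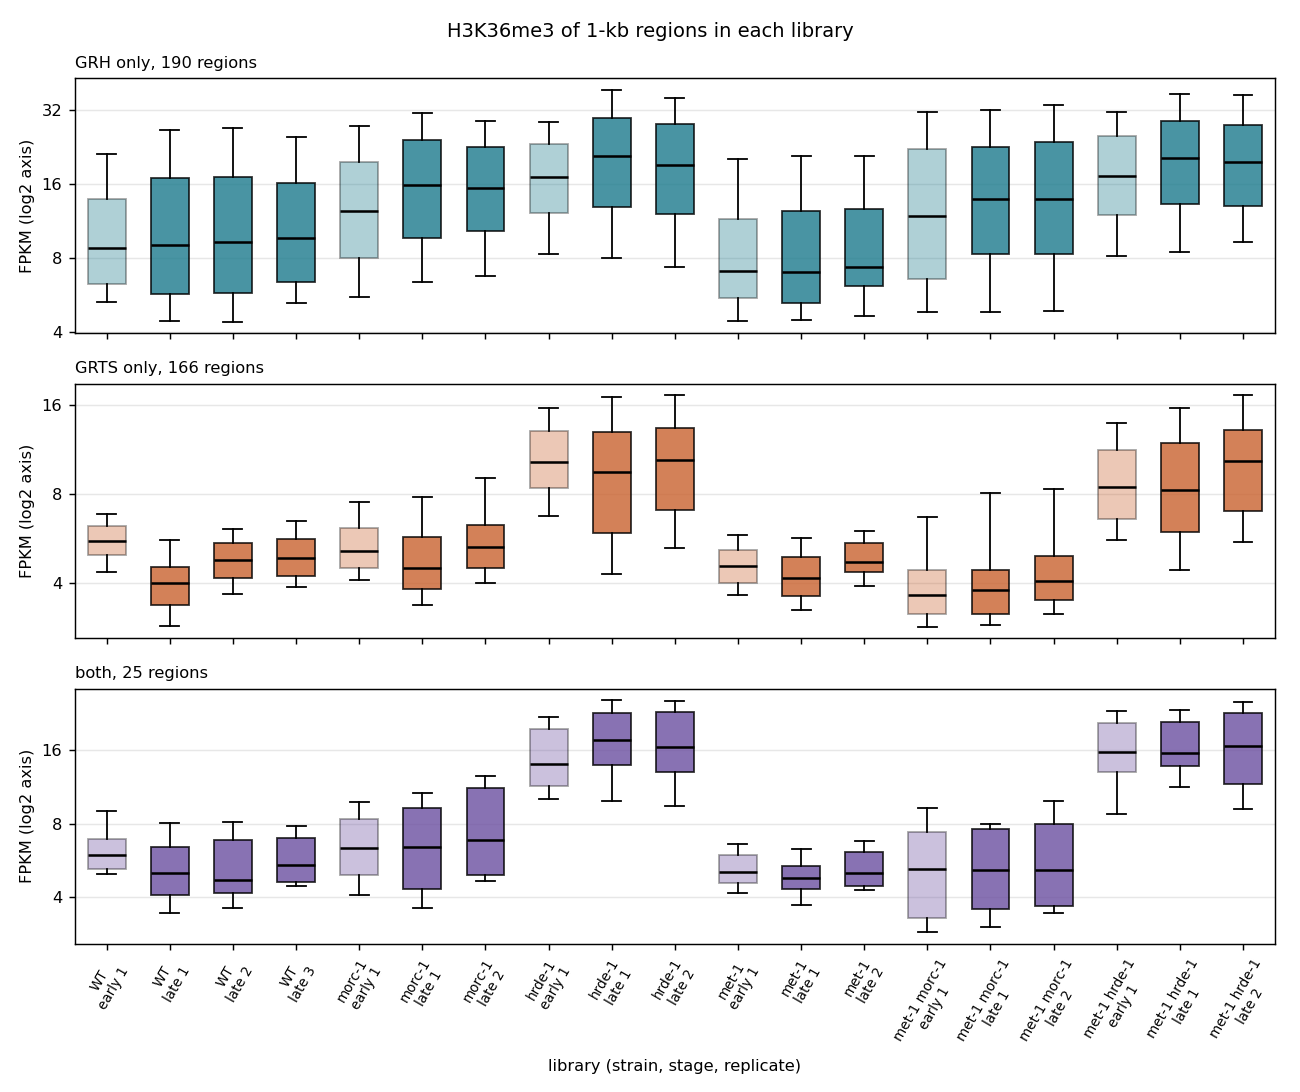
H3K36me3 in FPKM (log2 axis) of the 1-kb regions in each of the 19 libraries, with 1 panel for each class and boxes as for H3K9me3 (median, quartiles, central 80%, early libraries pale). GRTS only medians were 9.52 and 10.4 FPKM in late hrde-1 and between 4.01 and 5.33 FPKM in late WT and morc-1, while GRH only medians were raised in every library that carried hrde-1 or morc-1.

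At many members the 2 marks moved in opposite directions. In late hrde-1, 119 GRH only regions had both lower H3K9me3 and higher H3K36me3, which is 72.6% of the 164 with lower H3K9me3 and 98.4% of the 121 with higher H3K36me3. Over all regions tested, 693 had both in hrde-1, which is 56.8% of those with lower H3K9me3 and 36.1% of those with higher H3K36me3. In late morc-1, 54 GRH only regions had both, which is 47.4% of the 114 with lower H3K9me3 and 91.5% of the 59 with higher H3K36me3. Over all regions tested the 125 with both in morc-1 were 34.1% and 29.7%. Without late morc-1 replicate 2 in the H3K36me3 fit the 54 became 29, and without late hrde-1 replicate 1 the 119 became 72. Both changes were called in hrde-1 at 83 GRTS only regions, which is 80.6% of the 103 with lower H3K9me3 and 73.5% of the 113 with higher H3K36me3. Higher H3K36me3 without a call in H3K9me3 was found at 30 GRTS only and 2 GRH only regions, beside 1228 of all 100250 tested. Lower H3K9me3 without a call in H3K36me3 was found at 20 GRTS only and 45 GRH only regions, beside 528 of all tested. The difference between the classes was not tested. Across regions, Spearman's rho between the 2 log2 changes was -0.61 in morc-1 and -0.69 in hrde-1 over the 190 GRH only regions, and -0.39 and -0.53 over the 166 GRTS only regions. Over the 100250 regions tested it was 0.07 and -0.06. These coefficients describe regions that share libraries and neighbours, and they carry no test.

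**Figure D4:**
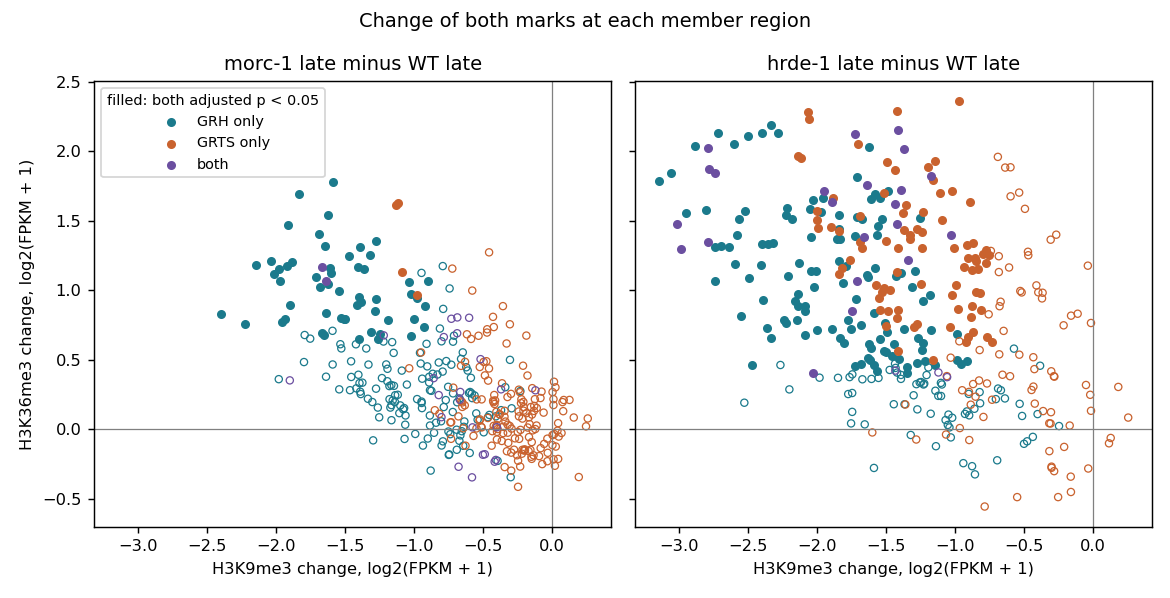
Change of H3K9me3 (x axis) against change of H3K36me3 (y axis) at each of the 381 members in late morc-1 (left) and late hrde-1 (right), both as log2(FPKM + 1) minus late WT, with filled points where both adjusted p were under 0.05. GRH only regions reach the upper left in both mutants, while in morc-1 most GRTS only regions lie near 0 on both axes, with medians of -0.29 and 0.08.

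In animals that lack MET-1 alone, H3K36me3 fell at part of the GRH regions. H3K36me3 was called lower in late met-1 than in late WT at 38 GRH only regions, 1 GRTS only region and none with both flags, while 2.48% of all regions tested were called lower. GRH only medians were 7.0 and 7.37 FPKM in late met-1 against 9.03, 9.31 and 9.65 FPKM in WT, and the median log2 change was -0.18. GRTS only medians were 4.17 and 4.74 FPKM, which overlap the WT values. Without late met-1 replicate 1 the GRH only count was 15. The 1 GRTS only call was lost without that library or without late WT replicate 2 or 3, and with the sample-name sets as a block 3 GRTS only regions were called. The largest falls were in the neighbours chrII:11174001-11175000, with 14.2, 14.2 and 14.6 FPKM in late WT and 5.50 and 5.81 FPKM in late met-1 (log2 change -1.20, SE 0.16, limma adjusted p 1.06e-05), and chrII:11175001-11176000, with 10.8, 13.9 and 12.1 FPKM against 5.76 and 5.70 FPKM. At chrI:5980001-5981000 WT had 26.2, 27.8 and 23.8 FPKM and met-1 had 11.7 and 13.9 FPKM. All 3 are GRH only.

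The rise of H3K36me3 in hrde-1 and morc-1 was also seen in animals that lack met-1. In late met-1 hrde-1 animals the GRH only medians were 20.4 and 19.7 FPKM, the GRTS only medians 8.26 and 10.3 FPKM and those with both flags 15.6 and 16.7 FPKM. Against late met-1, H3K36me3 was called higher at 123 GRH only, 85 GRTS only and 19 regions with both flags and lower at none, with 0.706% of all regions tested called higher and 0.0988% lower, so that members made up 227 (32.1%) of the 708. Median log2 changes were 1.00, 0.87 and 1.62, beside -0.15 over all regions tested, and the GRTS only count was 53 without late met-1 replicate 1. In late met-1 morc-1 animals the GRH only medians were 13.94 and 13.98 FPKM and the GRTS only medians 3.81 and 4.06 FPKM. Against late met-1, H3K36me3 was called higher at 75 GRH only, 8 GRTS only and 1 region with both flags, where 0.27% of all regions tested were called higher and 0.0329% lower. The median log2 changes were 0.61, -0.15 and 0.07, beside -0.15 over all regions tested. With quantile normalization that shift was 0.00 and the GRTS only median was 0.09. The total of 84 was 55 without late met-1 replicate 1, 54 without late met-1 morc-1 replicate 2 and 128 with the sample-name sets as a block, when 107 GRH only, 16 GRTS only and 4 regions with both flags were called higher and 1 GRTS only region lower. The GRTS only count was 4 without late met-1 replicate 1 or late met-1 morc-1 replicate 1, and 5 without late met-1 morc-1 replicate 2, when the GRH only count was 48. The 1 region with both flags was lost without late met-1 replicate 2.

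Single regions were followed in the double mutants. In chrII:11174001-11175000, where met-1 was lowest against WT, late met-1 hrde-1 had 35.6 and 34.5 FPKM against 5.50 and 5.81 FPKM in late met-1, a log2 change of 2.44 (SE 0.17, limma adjusted p 9.83e-12), and late hrde-1 had 38.2 and 36.9 FPKM. The other large rises in met-1 hrde-1 were at chrV:18440001-18441000 (14.7 and 20.8 FPKM against 1.60 and 3.98 FPKM) and chrV:8829001-8830000 (23.9 and 25.4 FPKM against 3.37 and 4.73 FPKM), both GRTS only. The first of these had the highest H3K9me3 of all members in WT, and its late hrde-1 H3K9me3 was 45.5 and 57.6 FPKM. In met-1 morc-1 the largest rises were in a 2-kb GRTS only run. In chrIV:13637001-13638000, late met-1 morc-1 had 21.2 and 19.5 FPKM against 2.88 and 3.42 FPKM in late met-1 (log2 change 2.36, SE 0.20, limma adjusted p 4.3e-09), and its neighbour chrIV:13638001-13639000 had 19.4 and 19.2 FPKM against 3.73 and 5.22 FPKM. The next was the GRH only region chrV:12693001-12694000, with 24.7 and 25.6 FPKM against 7.0 and 5.81 FPKM.

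Whether the effect of hrde-1 or morc-1 on H3K36me3 differed with and without met-1 was tested as an interaction. For hrde-1 the difference passed the test at 6 GRH only regions, where the rise was larger in the met-1 background, and at 1 GRTS only region, where it was smaller. Over all regions tested, 0.0219% were called higher and 0.014% lower. For morc-1 it passed at 3 GRH only regions, all with the larger rise in the met-1 background, where 0.00698% of all regions tested were called higher and 0.00599% lower. With the sample-name sets as a block the totals of 7 and 3 were 31 and 21, and leaving out single libraries gave 0 to 6 and 0 to 5. In chrI:3373001-3374000, late WT had 18.9, 17.0 and 15.4 FPKM and late met-1 had 9.13 and 7.74 FPKM, while late morc-1 had 19.9 and 18.0 FPKM and late met-1 morc-1 25.0 and 26.7 FPKM. Late hrde-1 had 22.7 and 19.2 FPKM and late met-1 hrde-1 25.1 and 26.4 FPKM. Late morc-1 thus overlapped WT and late hrde-1 lay just above it, while both double mutants lay far above met-1. The median over GRH only regions was 0.24 for hrde-1 and 0.09 for morc-1, beside 0.08 and -0.10 over all regions tested.

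The longest runs of each class showed these patterns over several kilobases. Of the 4 runs of 7 kb made mostly of GRH only regions, the 3 with the highest late WT H3K9me3 are described. The first was chrV:5472001-5479000, where mean H3K9me3 over its 7 regions was 32.0 FPKM in late WT, 18.8 and 18.0 FPKM in late morc-1 and 5.38 and 5.75 FPKM in late hrde-1. H3K36me3 over it was 6.12, 6.72 and 6.80 FPKM in late WT, 9.67 and 11.1 FPKM in late morc-1 and 25.6 and 24.7 FPKM in late hrde-1. All 7 regions were called in hrde-1 in both marks and 2 of 7 in morc-1 in each mark. In the run chrII:12740001-12747000, of 6 GRH only regions and 1 with both flags, 6 of 7 regions were called in morc-1 in each mark, with mean H3K9me3 of 30.5 FPKM in late WT, 11.01 and 10.95 FPKM in late morc-1 and 3.60 and 4.41 FPKM in late hrde-1. The third, chrII:11171001-11178000, had 3 regions called lower in H3K9me3 and none called higher in H3K36me3 in morc-1, and 6 called lower in H3K36me3 in met-1. In the remaining one, chrI:10781001-10788000 (5 GRH only and 2 GRTS only), 4 of 7 regions were called in each mark in morc-1 and 6 of 7 in hrde-1.

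The 14-kb GRTS run chrV:5187001-5201000 had mean H3K9me3 of 28.2 FPKM in late WT, 25.0 and 25.4 FPKM in late morc-1 and 15.5 and 15.2 FPKM in late hrde-1. Of its 14 regions, 10 were called lower in H3K9me3 and 10 higher in H3K36me3 in hrde-1, and none were called in either mark in morc-1. The paired 11-kb runs, each of 10 GRTS only regions and 1 with both flags, at chrV:8826001-8837000 and chrV:8868001-8879000 each had 11 regions called higher in H3K36me3 and 7 called lower in H3K9me3 in hrde-1, and none called in morc-1. Among runs led by regions with both flags, chrI:4456001-4464000 was the longest at 8 kb (5 with both flags, 2 GRH only and 1 GRTS only), with mean H3K9me3 of 29.7 FPKM in late WT, 15.95 and 19.9 FPKM in late morc-1 and 3.73 and 5.39 FPKM in late hrde-1. All 8 of its regions were called lower in H3K9me3 in hrde-1 and 1 in morc-1, while 4 were called higher in H3K36me3 in hrde-1 and 3 in morc-1. In chrII:13245001-13250000, all 5 regions were called in both marks in hrde-1 and none in morc-1, and H3K36me3 there averaged 23.0 and 20.3 FPKM in late hrde-1 against 6.06 and 6.05 FPKM in late morc-1. The 2-kb run chrII:5098001-5100000 was likewise called at both regions in both marks in hrde-1 and at none in morc-1.

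**Figure D5:**
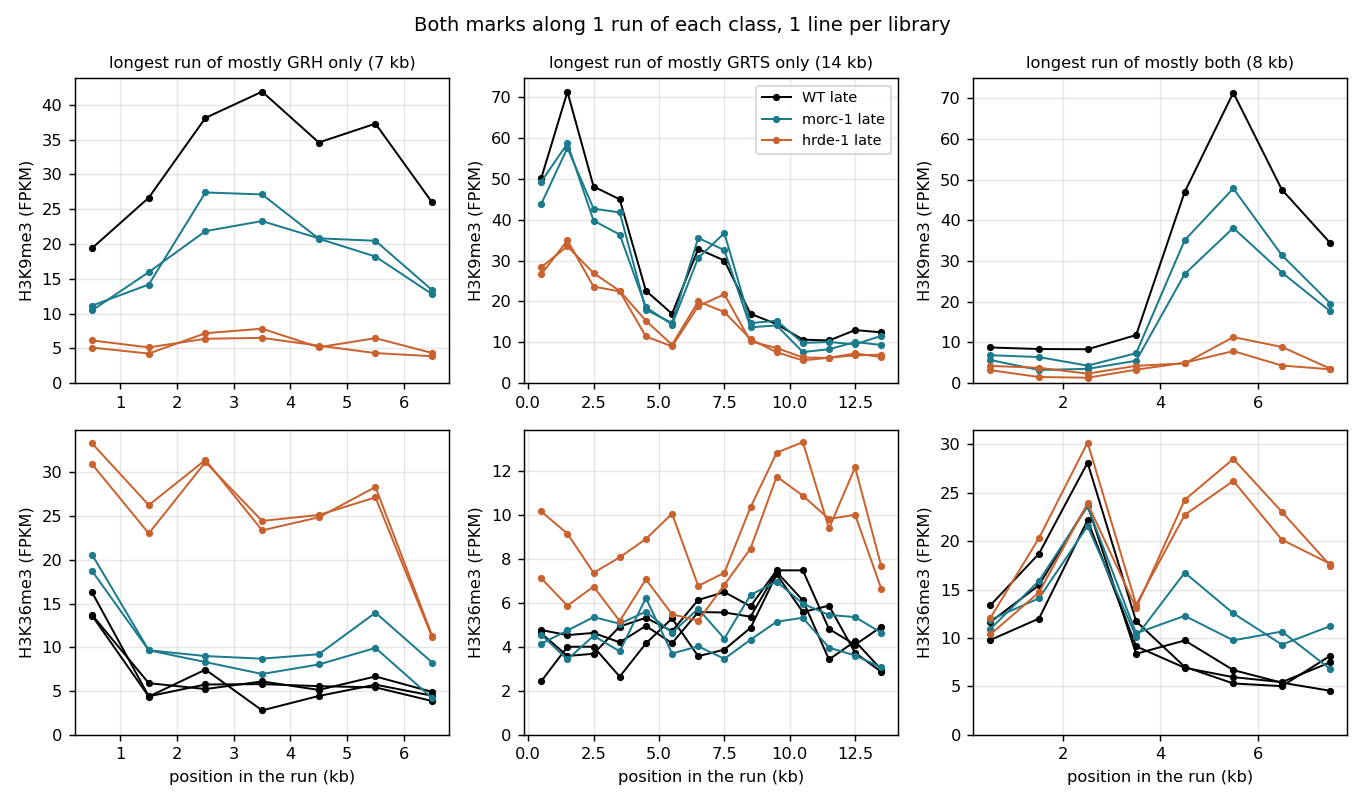
H3K9me3 (upper panels) and H3K36me3 (lower panels) in FPKM along the longest run of each class, by position in the run in kb, with 1 line for each late library. Late morc-1 lies between WT and hrde-1 in H3K9me3 over the GRH only run, with means of 18.8 and 18.0 FPKM, and close to WT over the 14-kb GRTS only run, with means of 25.0 and 25.4 FPKM against 28.2 FPKM.

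The authors' deposited table carries its own calls for these comparisons, 1 replicate at a time. Its headers name generation 4 for both replicates, whereas the labels give generation 5 for late replicate 2 of morc-1 (both marks) and of hrde-1 (H3K9me3), so which library its replicate 2 used is unclear. It marks H3K9me3 as lower in late morc-1 at 111 and 96 GRH only regions in its replicates 1 and 2 and at 3 and 9 GRTS only regions, where 0.269% and 0.338% of all regions are marked. For hrde-1 the authors' deposited table marks 160 and 139 GRH only regions and 92 and 81 GRTS only regions, where 1.14% and 0.817% of all regions are marked. For H3K36me3 higher in hrde-1 of generation 4, the authors' deposited table marks 71 and 70 GRH only, 73 and 56 GRTS only and 20 and 18 regions with both flags, where 0.524% and 0.479% of all regions are marked. For H3K36me3 higher in morc-1, the authors' deposited table marks 32 and 27 GRH only and 3 and 3 GRTS only regions, where 0.104% and 0.0898% of all regions are marked. For H3K36me3 lower in met-1 of generation 4, the authors' deposited table marks 20 and 13 GRH only regions and no other members. Over all regions, 1.31% and 0.537% are so marked. For H3K9me3 in generation 1 it marks 24 GRH only and 2 GRTS only regions in morc-1 (0.0569% of all regions) and 134 and 75 in hrde-1 (0.783% of all regions), in the authors' deposited table. Members were also flagged for overlap with up-regulated genes. In the authors' deposited table, at genes up in morc-1 of generation 4, lie 37 of 190 GRH only regions (19.5%), 13 of 166 GRTS only regions (7.83%) and 2 of 25 regions with both flags, against 7.41% of all regions. For genes up in hrde-1 the authors' deposited table gives 39 GRH only regions (20.5%), 21 GRTS only regions (12.7%) and 5 regions with both flags, against 5.65% of all regions. How these gene flags were tied to regions is not given in the sources used here.

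Input chromatin was tested with limma in a fit with strain and stage as terms. Each strain and stage had a single input library, so early and late inputs served as the replicates of a strain. None of the members was called in limma's fit of input in hrde-1 or morc-1 against WT, where 0.222% and 0.011% of all regions tested were called lower and 0.124% and 0.218% higher. At an unadjusted p under 0.05 there were 15 of 381 members in hrde-1 and 14 in morc-1, beside 5515 and 4024 of the 100250 regions tested. The median log2 change of every class in input was between -0.02 and 0.03. Each library was also divided by the input of its strain and stage. Replicates shared that input, and libraries of generation 5 were divided by an input of generation 4. The GRH only and GRTS only medians of H3K9me3 were then -1.59 and -0.97 in hrde-1 and -1.10 and -0.36 in morc-1.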

How the data were processed

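ChIP-seq of H3K9me3, H3K36me3 and input was analysed in 39 libraries. The deposited FPKM values per 1-kb region were computed by the authors, and reads were aligned with Bowtie 0.12.7 per the submitters' processing notes. The sources used here name no genome build. The H3K9me3 tier is a score the authors deposited. Values were tested as log2(FPKM + 1), a pseudocount of 1, with limma 3.58.1 in R 4.3.3, which understates changes at low values. Regions with a mean input under 2 FPKM were left out, which kept 100250 of 100257. Each mark was fitted over all its libraries, so a group of 1 library was assumed to vary like the rest, and p-values were adjusted over all regions tested. A called region had an adjusted p under 0.05. Members and lists were chosen with earlier results of these data known.

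Regions named in the text were the longest runs of each class, the highest in WT H3K9me3, the largest called changes in each comparison and the smallest H3K9me3 changes in hrde-1 among members with at least 20 FPKM in late WT. Sets were taken from the replicate numbers in the H3K36me3 sample names, with all generation 5 libraries put in 1 set. They paired libraries across strains, since deviations from group means correlated in all pairs (r from 0.18 to 0.41). The largest r, between morc-1 and WT, contrasts generation 4 with generation 5 libraries. Replicate numbers in the titles gave the same r for H3K36me3 pairs without late morc-1 (0.18 to 0.37). For pairs with late morc-1 they gave r from -0.04 to 0.33. In H3K9me3 the late morc-1 and late hrde-1 replicates also correlated (r 0.33), and the main tests did not use this pairing. On simulated data for hrde-1 against WT over 100250 regions, changes of 1 on the log2 scale were recovered at 68% (H3K9me3) and 98% (H3K36me3), and changes of 2 at 100%. Of the calls made there, 7.69% (H3K9me3) and 2.94% (H3K36me3) were false, so H3K9me3 came out above the 0.05 aimed at. Each mark was simulated only 1 time, with independent noise and few changed regions, whereas the real libraries correlated in sets. These rates may therefore not hold for the real data. Another 12 columns of the table could not be matched to 1 labelled sample and were not used, and mRNA and small RNA files were not analysed here. Depth was read from the steps of low values, of which 83.2 to 88.6% per library came out whole within 0.1. The input depth was not recovered.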

Additional observations from a re-analysis of the deposited data

Results flagged for a closer look

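At 7 regions the effect of hrde-1 on late H3K36me3, and at 3 of these also the effect of morc-1, differed with and without met-1 by limma's interaction test (adjusted p under 0.05). The hrde-1 effect was larger in the met-1 background by 1.32 on the log2 scale at chrII:3354001-3355000, 1.25 at chrIV:10355001-10356000, 1.23 at chrI:3373001-3374000, 1.19 at chrI:5980001-5981000, 1.03 at chrIV:9102001-9103000 and 0.96 at its neighbour chrIV:9103001-9104000. All of these are GRH only. At the GRTS only region chrII:2519001-2520000 it was smaller, with a difference of -1.34: late hrde-1 had 14.5 and 12.5 FPKM and late met-1 hrde-1 5.73 and 6.03 FPKM. The morc-1 effect was larger in the met-1 background by 1.37 at chrI:3373001-3374000, 1.28 at chrI:5980001-5981000 and 1.15 at chrIV:9102001-9103000. Each call was lost when at least 1 single library was left out, and those for morc-1 and for chrII:2519001-2520000 were also lost with quantile normalization.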

How the results depend on the processing

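Each count of members called was recomputed with a pseudocount of 0.5, no input filter, quantile normalization, division by input and replicate blocks. Further recounts used only the groups compared, strain and stage as terms, 1 of each near-identical pair left out, and single libraries left out. Of 156 such recounts, 131 stayed within 1.5 times the count reported and none reversed. That tally includes the input comparisons, whose counts of 0 stayed at 0, and settings that alter few values, such as no input filter. It is therefore no measure of how stable the other counts are. Leaving out 1 library gave 230 to 259 members (H3K9me3, hrde-1 against WT), 99 to 114 (morc-1 against WT) and 95 to 122 (hrde-1 against morc-1). For H3K36me3 it gave 179 to 243 (hrde-1), 38 to 67 (morc-1), 91 to 129 (hrde-1 against morc-1), 15 to 35 (met-1), 177 to 210 (met-1 hrde-1) and 54 to 64 (met-1 morc-1). It gave 0 to 6 for the hrde-1 difference with and without met-1, 0 to 5 for the morc-1 difference and 0 to 0 for both input comparisons. With the sample-name sets as a replicate block, which pairs H3K36me3 libraries, the count was 128 for met-1 morc-1, 31 for the hrde-1 difference and 21 for the morc-1 difference, and no other total moved by over 1.5 times. With the title number as a block the differences gave 11 and 8, divided by input 39 and 23, and the morc-1 difference gave 0 with quantile normalization. The cause was not tested. H3K9me3 has 1 late WT library, which could not be left out. Alternatives for the separate generation-5 libraries were not run, since their columns could not be matched. Late H3K9me3 groups mix generations 4 and 5. The adjusted p-values behind the H3K9me3 calls rest on a spread pooled over regions from 8 libraries, and late WT adds no spread of its own.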
